A study of Caenorhabditis elegans with 4 samples.

Results

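The 10 genes described here encode digestive and lysosomal proteases of *C. elegans*. They are 5 aspartyl proteases (*asp-1*, *asp-3*, *asp-4*, *asp-5* and *asp-6*) and 5 cathepsin B-like cysteine proteases (*cpr-1*, *cpr-3*, *cpr-4*, *cpr-5* and *cpr-6*). They were taken by name from a table of 15286 genes, and all 10 were found in it. They had been picked for their levels in these same libraries, so the difference between the strains in these 10 genes is given as a description and no p is given for them. Tests are reported for genes outside this set.

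The libraries were 2 from H3.3K27M gonads and 2 from wild-type gonads, dissected from adult worms. H3.3K27M worms belong to strain FAS58 and carry the allele *his-72*(uge40[K27M]) on chromosome III, in which lysine 27 of the histone variant H3.3 encoded by *his-72* is changed to methionine, and wild-type worms are strain N2. Both strains were cultured at 25 °C, and the methods call the replicates of each strain biological replicates. The titles of the mutant libraries name strain FAS43 instead, and the extraction text in the labels also speaks of embryos and larvae. The mutation itself cannot be read from counts per gene. The transcript of *his-72* had 55.4 ± 7.08 CPM (counts scaled to a common library size, here by TMM) in H3.3K27M and 73.0 ± 12.4 CPM in wild type (SD, n = 2 each), a log2 fold change of -0.40 ± 0.21 (SE) that did not pass the test (adjusted p = 0.281).

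Aspartyl proteases and papain-family cysteine proteases cut proteins in acidic compartments. In the worm many of them are made in the intestine, where they digest bacteria in the gut lumen or proteins delivered to lysosomes and to the related gut granules. The intestine also makes the yolk proteins, or vitellogenins, which are secreted into the body cavity and taken up by oocytes. The dissected adult gonad itself holds germ cells, oocytes and the somatic cells that enclose them, and lies against the intestine in the body.

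The 4 libraries held between 28298609 and 32957429 counts, and between 13116 and 14726 genes with at least 1 count. A gene with 3 counts, taken here as the floor, stood at 0.0919 to 0.105 CPM. The 2 mutant libraries differed from each other far beyond counting noise (chi-square per degree of freedom 78.3), as did the 2 wild-type libraries (88.8). Markers of the germ line, such as *gld-1* and *rme-2*, were abundant, with summed levels of 16990 and 13810 CPM in H3.3K27M against 22320 and 18020 CPM in wild type. A large part of these sums was *rme-2*, with 6982 and 5793 CPM in H3.3K27M against 12300 and 8831 CPM in wild type. The median log2 fold change of the 16 germ line markers was -0.04, with 9 below and 7 above 0. In these bulk samples, fewer cells of a type and less RNA per cell cannot be told apart.

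The protease RNAs were scarce in both H3.3K27M libraries and unevenly abundant in the 2 wild-type libraries. The 10 genes together had 145 and 237 counts in H3.3K27M, against 805 and 7020 counts in wild type. On the CPM scale the sums were 4.44 and 7.46 in H3.3K27M and 27.5 and 244.7 in wild type, and the means of these sums differed by 22.9-fold. Most of the wild-type total thus came from wild-type replicate 2, while wild-type replicate 1 lay nearer to the mutant libraries than to its own replicate on the linear scale. In each of the 10 genes both mutant libraries were below both wild-type libraries, a pattern found in 32.7% of all genes tested.

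**Figure D1:**
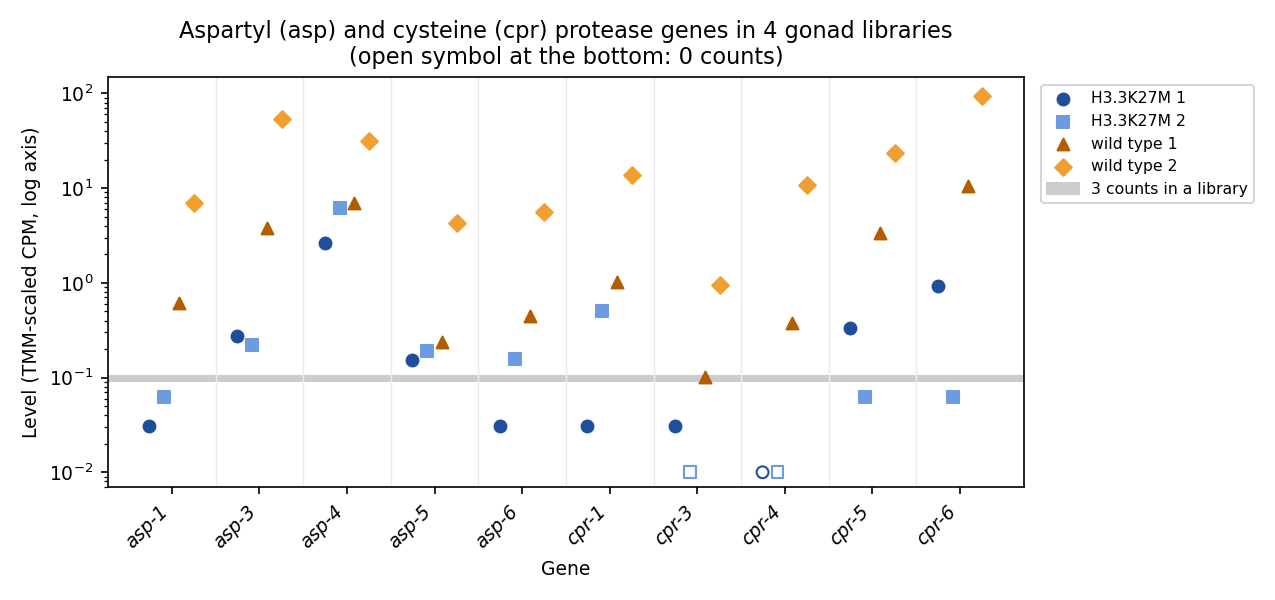
Level of each of the 10 protease genes in each library, in CPM on a log axis, with points for H3.3K27M drawn left of points for wild type and zeros marked as such. The summed levels were 4.44 and 7.46 CPM in H3.3K27M against 27.5 and 244.7 CPM in wild type, and in every gene the wild-type replicate 2 point is the highest.

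Among the aspartyl proteases, *asp-3* had the highest mean level per length in wild type. The *asp-3* gene (X:6791064-6792709, + strand) encodes a cathepsin D-like protease that, together with *asp-4*, is needed for the necrotic death of neurons in worms. It had 9 and 7 counts in H3.3K27M, against 110 and 1522 counts in wild type. The mutant libraries lay close together, and the lower wild-type library was 13.6-fold above the higher of them in CPM. The mean was 0.248 ± 0.0390 CPM in H3.3K27M and 28.4 ± 34.9 CPM in wild type (SD, n = 2 each), with a log2 fold change of -6.81 ± 1.61 (SE). The SD in wild type exceeded the mean, because the 2 wild-type libraries differed by 14.1-fold.

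The other cathepsin D-like protease, *asp-4* (X:13218985-13221462, - strand), had the highest level per length of the 10 genes in the mutant. It had 86 and 197 counts in H3.3K27M, against 203 and 905 counts in wild type. The counts of mutant replicate 2 and wild-type replicate 1 were nearly equal, and in CPM wild-type replicate 1 was only 1.12-fold above that mutant library. The mean was 4.42 ± 2.52 CPM in H3.3K27M and 19.2 ± 17.4 CPM in wild type (SD, n = 2 each), and the log2 fold change of -2.12 ± 0.76 (SE) was the smallest in size among the 10. The gene overlaps R12H7.4 on the opposite strand, which had 0 and 0 counts in H3.3K27M and 3 and 9 counts in wild type.

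The 3 remaining aspartyl proteases, for which an intestinal site of expression is best known for *asp-1*, were near the floor in the mutant. *asp-1* (V:19049562-19050752, - strand) had 1 and 2 counts in H3.3K27M, against 18 and 200 counts in wild type. The pooled ratio of wild type over H3.3K27M was 80.7, with a 95% exact interval of 27.3 to 394.5 that covers counting error only. Its 3 mutant counts in all leave the fold poorly fixed.

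*asp-6* (V:8267511-8268937, - strand) had 1 and 5 counts in H3.3K27M, against 13 and 161 counts in wild type. *asp-5* (V:8272385-8274044, + strand) had 5 and 6 counts in H3.3K27M, against 7 and 124 counts in wild type. In *asp-5* wild-type replicate 1 was within 1.27-fold of the higher mutant library, so that the gap between the strains rested on wild-type replicate 2. *asp-6* had a log2 fold change of -4.95 ± 1.56 (SE) and *asp-5* one of -3.70 ± 1.48 (SE).

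Among the cysteine proteases, *cpr-6* had the highest mean level per length of all 10 genes in wild type. The gene (X:6607207-6609045, + strand) encodes a cathepsin B-like enzyme. It had 30 and 2 counts in H3.3K27M, against 311 and 2710 counts in wild type. The mutant libraries were themselves far apart, and the lower wild-type library was 11.6-fold above the higher mutant one in CPM. The mean was 0.491 ± 0.605 CPM in H3.3K27M and 52.5 ± 59.3 CPM in wild type (SD, n = 2 each), a log2 fold change of -6.71 ± 1.39 (SE).

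*cpr-5* (V:1132598-1134036, - strand), another cathepsin B-like gene, had 11 and 2 counts in H3.3K27M, against 99 and 669 counts in wild type. The groups were well apart, with wild-type replicate 1 at 10.03-fold the higher mutant library in CPM. The mean was 0.200 ± 0.194 CPM in H3.3K27M and 13.4 ± 14.1 CPM in wild type (SD, n = 2 each), a log2 fold change of -6.02 ± 1.32 (SE).

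*cpr-1* (V:11975551-11976756, + strand) is the gut-specific cysteine protease gene of the family. It had 1 and 16 counts in H3.3K27M, against 30 and 394 counts in wild type. Mutant replicate 2 was the library nearest to wild type, at 2.03-fold under wild-type replicate 1 in CPM. The log2 fold change was -4.78 ± 1.53 (SE).

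*cpr-4* (V:6614674-6615851, + strand) encodes a secreted cathepsin B-like enzyme that in irradiated worms acts on distant cells. It had 0 and 0 counts in H3.3K27M, against 11 and 308 counts in wild type. It was the only one of the 10 genes without a read in either mutant library, and it was at least 118.1-fold lower in H3.3K27M when the mutant libraries were set to 3 counts over the group. Against wild-type replicate 1 alone the same bound was 8.06-fold. A gene for the small RNA 21ur-14330 lies within *cpr-4* on the opposite strand.

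*cpr-3* (V:15296834-15298700, - strand) had the lowest mean level per length of the 10 in wild type. It had 1 and 0 counts in H3.3K27M, against 3 and 27 counts in wild type. Its wild-type replicate 1 value was at the floor, and the pooled ratio of wild type over H3.3K27M was 33.3 with a 95% exact interval of 5.54 to 1360.

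Set against the length of each gene's exons, the levels covered a wide range in wild type. The mean level of *cpr-6* in wild type was 41.7 CPM per kb and that of *cpr-3* was 0.381 CPM per kb. Between them came *asp-3* at 19.4, *asp-4* at 13.2, *cpr-5* at 11.1, *cpr-1* at 6.84, *cpr-4* at 4.92, *asp-1* at 3.18, *asp-6* at 2.38 and *asp-5* at 1.84 CPM per kb in wild type. The 2 wild-type libraries differed by at least 4.55-fold in each gene, and the ranges of neighbours in this order overlapped. In H3.3K27M *asp-4* had the highest mean, at 3.03 CPM per kb, and *cpr-6* followed at 0.390 CPM per kb. In both mutant libraries *asp-4* was above the other 9 genes per length, with 1.80 and 4.25 CPM per kb against 0.729 and 0.04998 CPM per kb for *cpr-6*.

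The make-up of the protease RNA differed between the libraries. *asp-4* gave 59.3% and 83.1% of the 10 genes' counts in H3.3K27M, against 25.2% and 12.9% in wild type. *cpr-6* gave 20.7% and 0.844% in H3.3K27M, against 38.6% and 38.6% in wild type. The share of *cpr-6* was thus close to the same in the 2 wild-type libraries despite their difference in total, while the 2 mutant libraries did not share one make-up. The aspartyl proteases summed to 3.12 and 6.83 CPM in H3.3K27M and 11.98 and 101.5 CPM in wild type, 11.4-fold apart in the mean. The cysteine proteases summed to 1.32 and 0.630 CPM in H3.3K27M and 15.5 and 143.2 CPM in wild type, 81.5-fold apart. At or under 3 counts were 5 and 5 of the 10 genes in H3.3K27M, against 1 and 0 in wild type.

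The 2 wild-type libraries differed in the same direction in each of the 10 genes. Wild-type replicate 2 was above replicate 1 in all 10, against 53.3% of genes tested. The ratio of replicate 2 over replicate 1 ran between 4.55 for *asp-4* and 28.6 for *cpr-4*, with a median of 12, against a median of 1.02 over all genes. A ratio of at least 4.55, which all 10 reach because it is their own lowest value, was found in 6.1% of genes tested. Wild-type replicate 2 above replicate 1 above both mutant libraries was the order of all 10 genes and of 18.6% of genes tested. Among the genes with a mutant count, the ratio of wild-type replicate 2 over replicate 1 exceeded that of wild-type replicate 1 over the higher mutant library in every gene except *cpr-5* and *cpr-6*. As the 10 were picked for their levels in these libraries, nothing is read from the shares above.

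The log2 fold change of the 10 genes had a median of -5.49, or -5.54 with the genes of 3 or fewer mutant counts set to their bound or pooled ratio, against -0.11 over all genes tested. Without wild-type replicate 2 the median was -3.03, and without wild-type replicate 1 it was -6.31. Without mutant replicate 1 it was -6.34, and without mutant replicate 2 it was -6.14. Leaving out wild-type replicate 2 brought *asp-5* to -0.48, *asp-4* to -0.65, *cpr-6* to -4.41, *cpr-5* to -4.04, *asp-3* to -3.90 and *asp-1* to -3.61. All 10 kept a negative value in each of these fits. This was given in advance, since both mutant libraries were below both wild-type libraries in each gene.

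**Figure D2:**
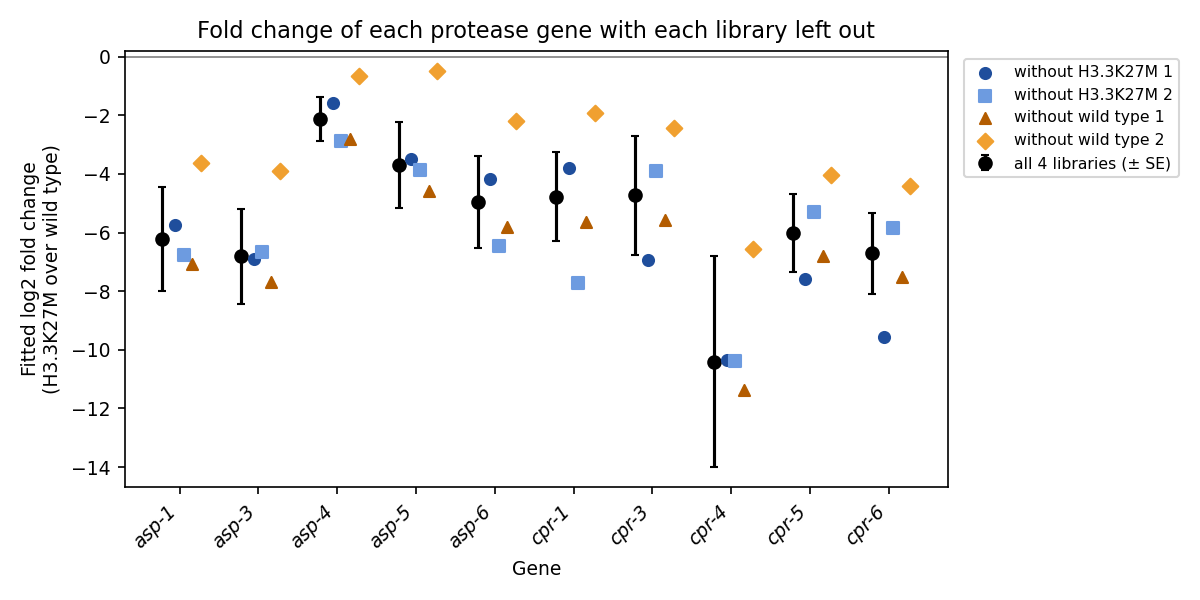
Log2 fold change of H3.3K27M over wild type for each of the 10 protease genes, fitted on all 4 libraries (with its SE) and again after dropping each library. Without wild-type replicate 2 the median is -3.03, against -5.49 with all 4 libraries, and the fitted value of *cpr-4*, which had no mutant count, is no measure of its fold.

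By the rule used for all genes (adjusted p under 0.05 and a fold over 2), 2 of the 10 genes, *cpr-5* and *cpr-6*, were called lower in H3.3K27M, where 1.46% of all genes tested were called lower and 5.89% were called in either direction. Since the genes were chosen on these values, nothing is read from that count. The count was 0 with RLE normalization, 4 with the legacy quasi-likelihood method and 9 with DESeq2. It was 1 without wild-type replicate 1 and 0 without any 1 of the other libraries. A filter on low counts removed *asp-5* and *cpr-3* and kept the other 8.

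The 10 genes lie on 2 chromosomes, 7 on V and 3 on X. *asp-6* and *asp-5* are neighbours on opposite strands with 3447 bases between them, and *cpr-6* and *asp-3* are 182018 bases apart. The rest are scattered over chromosomes V and X. Genes called lower in H3.3K27M made up 1.32% of those tested on chromosome V and 6.87% on chromosome X, where the median log2 fold change was -0.37 and -1.06.

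The other aspartyl proteases of the worm had few counts. Of 14 listed, 7 were in the table, and none was called (4 at an unadjusted p under 0.05, beside 3771 of all 15261 genes). Called lower were 2 with DESeq2 and 2 with the legacy method (*asp-2* and *asp-13*), 1 with filterByExpr (*asp-13*) and 0 with RLE normalization. In 6 of the 7 both mutant libraries were below both wild-type libraries, beside 32.7% of all genes, and the median log2 fold change was -3.85. Their sums were 0.613 and 1.67 CPM in H3.3K27M, against 4.03 and 19.1 CPM in wild type. *asp-2* had 3 and 1 counts in H3.3K27M and 23 and 144 counts in wild type (log2 fold change -5.45 ± 1.43, adjusted p = 0.0684). *asp-13* had 1 and 2 counts in H3.3K27M and 28 and 96 counts in wild type (-5.41 ± 1.29, adjusted p = 0.0540). *asp-14* had 0 and 12 counts in H3.3K27M and 13 and 146 counts in wild type (-3.85 ± 1.52, adjusted p = 0.181).

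Among the other papain-family cysteine proteases, 5 of 8 listed were in the table, and *cpr-9* was called lower. *cpr-9* (F57F5.1, V:12003053-12004584, + strand), a close relative of the cathepsin B-like genes, had 61 and 54 counts in H3.3K27M, against 327 and 1244 counts in wild type. The groups did not overlap, and the log2 fold change was -3.93 ± 0.73 (SE, adjusted p = 0.0346). Without wild-type replicate 2 it was -2.64, and in none of the fits with a library left out was the gene called.

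The other proteases of this family did not pass the test. *cpl-1*, the cathepsin L gene needed for yolk processing in embryos, had 299 and 528 counts in H3.3K27M and 556 and 1858 counts in wild type (log2 fold change -1.70 ± 0.59, adjusted p = 0.155). *cpz-1*, the cathepsin Z gene, had 2688 and 3625 counts in H3.3K27M and 2332 and 3599 counts in wild type, and its log2 fold change was -0.06 ± 0.28 (SE, adjusted p = 0.908). Its groups overlapped. *cpz-2* had 7 and 0 counts in H3.3K27M and 2 and 62 counts in wild type, and *tag-196* had 23 and 26 counts in H3.3K27M and 24 and 10 counts in wild type. *cpr-8* was not analysed here.

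**Figure D3:**
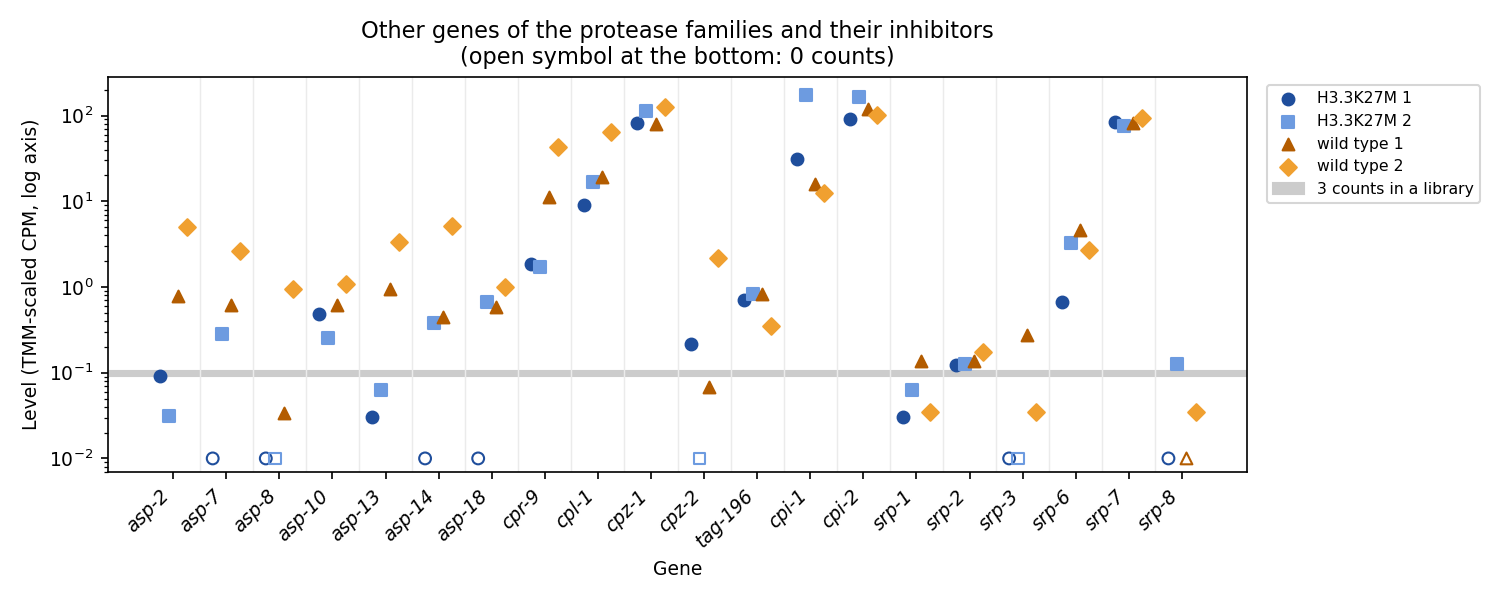
Levels, in CPM on a log axis, of the aspartyl and papain-family protease genes outside the 10 and of the protease inhibitor genes, with points for H3.3K27M left of points for wild type. *cpz-1* has overlapping groups (log2 fold change -0.06), while *cpr-9* is lower in both H3.3K27M libraries than in both wild-type libraries (-3.93).

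Of 8 genes for inhibitors of such proteases none was called (1 at an unadjusted p under 0.05, and 1 higher with DESeq2). The cystatins inhibit cysteine proteases. The cystatin gene *cpi-2* had 2982 and 5202 counts in H3.3K27M and 3491 and 2898 counts in wild type (log2 fold change 0.21 ± 0.29, adjusted p = 0.677). *cpi-1* had 1020 and 5512 counts in H3.3K27M and 462 and 356 counts in wild type (2.86 ± 0.76, adjusted p = 0.0925), and the mutant libraries were far apart. The serpin gene *srp-7* had 2710 and 2431 counts in H3.3K27M and 2389 and 2663 counts in wild type (-0.13 ± 0.17, adjusted p = 0.670).

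Lysosome genes were called in both directions. Of 55 lysosome and gut granule genes tested, 3 were called higher and 2 lower in H3.3K27M, beside 4.43% higher and 1.46% lower over all genes, and their median log2 fold change was -0.05. Their sums were 2656 and 2554 CPM in H3.3K27M, against 2441 and 2672 CPM in wild type. The abundant members, a serine carboxypeptidase (*ctsa-1.1*) and the proton pump subunits *vha-13* and *vha-7*, had log2 fold changes of 0.16, -0.04 and 0.33 (adjusted p = 0.684, 0.9196 and 0.268).

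Called lower were *ctsa-2*, a serine carboxypeptidase gene, with 0 and 17 counts in H3.3K27M and 268 and 299 counts in wild type (log2 fold change -5.19 ± 0.69, adjusted p = 0.0114), and *lmp-1*, a lysosomal membrane protein gene, with 669 and 957 counts in H3.3K27M and 1583 and 2214 counts in wild type (-1.37 ± 0.28, adjusted p = 0.0430). Called higher were *epg-5*, an autophagy gene (2.37 ± 0.18, adjusted p = 0.00273), *ncr-2*, a relative of the Niemann-Pick C cholesterol transporter (2.72 ± 0.49, adjusted p = 0.0315), and *vha-6*. The *vha-6* gene encodes the proton pump subunit of the gut's luminal membrane, and it had 419 and 709 counts in H3.3K27M against 35 and 29 counts in wild type (3.99 ± 0.45, adjusted p = 0.00766). The call of *lmp-1* was lost with RLE normalization (adjusted p = 0.0528 by edgeR) and that of *ctsa-2* with DESeq2 (adjusted p = 0.117).

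Of 35 gut digestion and defence genes, such as lysozymes, saposin-like proteins and acid phosphatases, 2 were called higher and none lower, beside 4.43% and 1.46% of all genes (12 at an unadjusted p under 0.05, beside 3771 of all 15261 genes, and 3 lower and 3 higher with DESeq2). Their median log2 fold change was -1.48, and 14 of the 35 had the proteases' order of the libraries, beside 18.6% of all genes. Among these were the lysozyme genes *ilys-5*, with 0.337 and 0.157 CPM in H3.3K27M and 3.925 and 41.4 CPM in wild type (-6.49 ± 1.48, adjusted p = 0.0572), and *lys-4*, with 3 and 7 counts in H3.3K27M and 44 and 403 counts in wild type (-5.60 ± 1.44, adjusted p = 0.0722). The called genes were the acid phosphatases *pho-10*, with 84 and 111 counts in H3.3K27M and 5 and 5 counts in wild type, and *pho-12*, with 378 and 449 counts in H3.3K27M and 39 and 40 counts in wild type (log2 fold changes 4.103 ± 0.71 and 3.23 ± 0.34, adjusted p = 0.0218 and 0.00657). The abundant *pho-5*, *spp-10* and *pho-14* had log2 fold changes of 0.33, -0.15 and 0.05 and were not called. After dropping any 1 library, the lysosome and gut digestion lists together had between 0 and 2 calls, against 7 with all 4 libraries.

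As many proteases of these families are made in the intestine, the intestine markers were set beside the 10. Of 28 listed, 24 were tested, of which 11 were below and 7 above wild type in both mutant libraries, 6 were called lower and 1 higher, beside 32.7% below, 24.1% above, 1.46% called lower and 4.43% called higher over all genes. Their sums were 487.2 and 628.8 CPM in H3.3K27M, against 823.9 and 3972 CPM in wild type. All 6 called lower were the vitellogenins, which summed to 12.1 and 18.8 CPM in H3.3K27M and 375.1 and 3434 CPM in wild type, and which had a median wild-type replicate 2 over replicate 1 of 9.73. The vitellogenins thus had the same order of the libraries as the proteases. *vit-2* had 158 and 161 counts in H3.3K27M and 2413 and 22167 counts in wild type (log2 fold change -6.43 ± 1.13, adjusted p = 0.0283). *vit-6* had 76 and 203 counts in H3.3K27M and 3473 and 34241 counts in wild type (-7.24 ± 1.27, adjusted p = 0.0277). The log2 fold change was -7.76 for *vit-3* (adjusted p = 0.0240), -7.36 for *vit-4* (adjusted p = 0.0404) and -7.30 for *vit-5* (adjusted p = 0.0285). Without wild-type replicate 2 the median log2 fold change of the vitellogenins was -4.75, and no intestine marker was called without it or without either mutant library, while 5 were called without wild-type replicate 1. With RLE normalization *vit-4* was not called (adjusted p = 0.0518 by edgeR).

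The intestine markers other than the vitellogenins were mixed. These 18 summed to 475.1 and 609.9 CPM in H3.3K27M, against 448.8 and 538.1 CPM in wild type, and had 9 log2 fold changes below and 9 above 0. Most of that sum came from *erm-1*, with 7460 and 5772 counts in H3.3K27M and 5476 and 5435 counts in wild type, and *far-2*, with 6674 and 11750 counts in H3.3K27M and 6964 and 9189 counts in wild type. The other 16 summed to 42.3 and 58.2 CPM in H3.3K27M and 24.2 and 28.4 CPM in wild type. Of the 18, 5 had the proteases' order of the libraries (*act-5*, *ifb-2*, *ifc-2*, *pept-1* and *mtl-2*), beside 18.6% of all genes. Another 7 were above wild type in both mutant libraries (*ges-1*, *elt-2*, *eps-8*, *pgp-1*, *nhx-2*, *vha-6* and *lbp-6*), beside 24.1% of all genes. *eps-8* had 519 and 378 counts in H3.3K27M and 306 and 191 counts in wild type. *lbp-6* had 155 and 338 counts in H3.3K27M and 117 and 112 counts in wild type. The counts were 90 and 154 in H3.3K27M and 52 and 33 in wild type for *pgp-1*, and 70 and 98 against 26 and 19 for *nhx-2*. *mtl-2*, a metallothionein gene, had 0 and 1 counts in H3.3K27M and 8 and 128 counts in wild type (adjusted p = 0.168), and *ifc-2*, an intermediate filament gene, had 0 and 0 counts in H3.3K27M and 6 and 20 counts in wild type (adjusted p = 0.163). DESeq2 called *mtl-2* and *pept-1* lower (adjusted p = 0.00286 and 0.0160). *elt-2*, the transcription factor that defines the gut, was at or near the floor in every library, with 3 and 6 counts in H3.3K27M and 2 and 1 counts in wild type. *ges-1*, the gut esterase, had 114 and 43 counts in H3.3K27M and 5 and 19 counts in wild type (log2 fold change 2.54 ± 0.88, adjusted p = 0.153).

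*pept-1*, the peptide transporter that takes up what gut proteases release, had 0 and 0 counts in H3.3K27M and 17 and 25 counts in wild type (adjusted p = 0.128). The brush border actin *act-5* had 3 and 19 counts in H3.3K27M and 28 and 70 counts in wild type. The intermediate filament gene *ifb-2* had 1 and 21 counts in H3.3K27M and 28 and 52 counts in wild type. Neither *act-5* nor *ifb-2* passed the test (adjusted p = 0.204 and 0.264). The part of carried-over intestine in the protease levels was not tested.

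**Figure D4:**
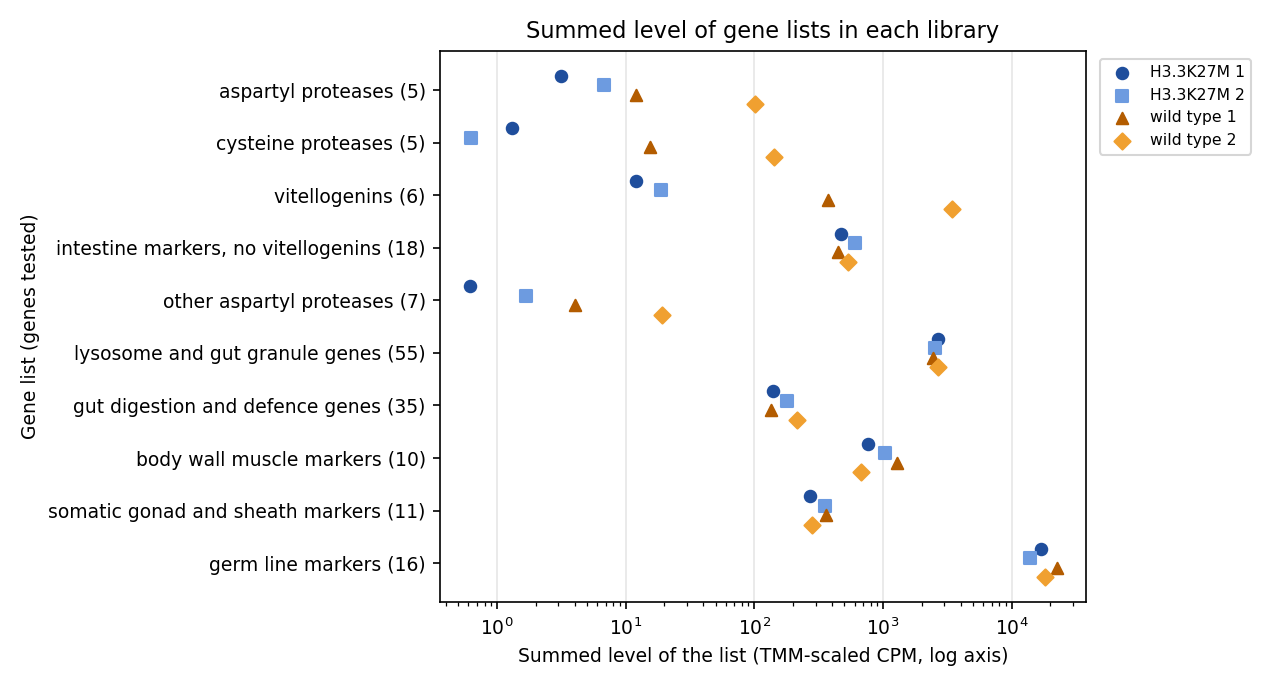
Summed level of the aspartyl proteases, the cysteine proteases and other gene lists in each library, in CPM on a horizontal log axis. In each list the points for H3.3K27M are drawn above those for wild type. In both protease lists and in the vitellogenins (12.1 and 18.8 CPM in H3.3K27M against 375.1 and 3434 CPM in wild type), wild-type replicate 2 is highest and wild-type replicate 1 next. The sum of the 18 other intestine markers, most of it *erm-1* and *far-2*, is between 448.8 and 609.9 CPM.

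Among the lists of other tissues, the proteases' order of the libraries (wild-type replicate 2, then wild-type replicate 1, then both mutant libraries) was found in 3 of 6 pharynx markers, 2 of 7 hypodermis and cuticle markers, 1 of 10 body wall muscle markers, 1 of 10 neuron markers, 1 of 16 germ line markers, 3 of 26 sperm markers, 0 of 11 sheath and somatic gonad markers and 0 of 2 coelomocyte markers, beside 18.6% of all genes tested. The pharynx markers with this order were *myo-1*, *tnt-4* and *phat-1*. The order asks for no minimum gap, and wild-type replicate 2 over replicate 1 was only 1.07 for *myo-1* and 1.02 for *phat-1*. *myo-1*, a myosin heavy chain gene, had 10 and 49 counts in H3.3K27M and 65 and 68 counts in wild type, and the median log2 fold change of the 6 pharynx markers was -1.34. The summed levels were 7.66 and 11.02 CPM in H3.3K27M and 9.15 and 11.01 CPM in wild type for pharynx markers, and 8.05 and 8.44 CPM in H3.3K27M and 4.51 and 6.41 CPM in wild type for hypodermis and cuticle markers. The largest part of the pharynx sum in each library came from 1 gene, *tni-4*. Body wall muscle markers summed to 763.8 and 1038 CPM in H3.3K27M and 1274 and 674.9 CPM in wild type, and sheath and somatic gonad markers to 268.2 and 352.0 CPM in H3.3K27M and 357.2 and 280.7 CPM in wild type. Neuron markers summed to 95.97 and 94.9 CPM in H3.3K27M and 64.9 and 69.5 CPM in wild type. Of the 10, 6 were above both wild-type libraries in both mutant libraries, beside 24.1% of all genes tested. Of the 2 coelomocyte markers, *cup-4* had 78 and 368 counts in H3.3K27M and 0 and 6 counts in wild type, while the groups of *unc-122* overlapped, and together they summed to 3.03 and 11.9 CPM in H3.3K27M and 0.410 and 0.279 CPM in wild type. Sperm markers summed to 86.8 and 116.5 CPM in H3.3K27M and 37.6 and 13.2 CPM in wild type, most of it *spe-41* in the mutant. Of the 26, 20 had a log2 fold change below 0, beside 8552 of all 15261 genes tested. Without *spe-41* the sums were 9.55 and 14 CPM in H3.3K27M and 14.7 and 7.6 CPM in wild type. The genes called in these lists were *cup-4* (log2 fold change 6.02), *unc-13* (2.79) and *unc-104* (1.59), all higher, and *plc-1* (-1.68), lower (adjusted p = 0.0410, 0.00980, 0.0431 and 0.0344). Over all genes tested, 4.43% were called higher and 1.46% lower. With RLE normalization *unc-104* was not called (adjusted p = 0.0512 by edgeR). The part of these tissues in the protease levels was not tested.

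Per vitellogenin count, the proteases stood at a like level in the 2 wild-type libraries. There were 36.6 (95% exact interval 30.1 to 44.4) and 39.6 (34.0 to 46.1) protease counts per 100 vitellogenin counts in H3.3K27M, against 7.32 (6.81 to 7.87) and 7.13 (6.96 to 7.30) in wild type. Without *asp-4*, left out here after its values were seen, they were 14.9 (11.1 to 19.6) and 6.69 (4.73 to 9.22) in H3.3K27M, against 5.48 (5.04 to 5.95) and 6.21 (6.05 to 6.37) in wild type. The 2 mutant libraries then differed from each other, and the intervals of the 2 wild-type libraries did not overlap either. These values describe the libraries, and the intervals cover counting error only.

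The genes most like the proteases were sought among 5607 genes outside all lists with a mean of at least 10 CPM, by the distance between centred log2 CPM profiles over the 4 libraries. Most of the 10 proteases have a lower mean than that themselves, so genes of a like low level were not searched. The nearest to the median profile of the 10 were F23D12.2, C36C9.1, F53B1.2, T05E12.10 and C23F12.4, at distances of 2.30, 2.31, 2.38, 2.39 and 2.40. T05E12.10 is on chromosome V and the other 4 are on X. All 5 were highest in wild-type replicate 2, but their wild-type libraries were closer than those of the proteases. C36C9.1 had 141 and 173 counts in H3.3K27M and 1470 and 1924 counts in wild type, for example. The 10 proteases themselves lay between 0.439 (*asp-1*) and 3.50 (*cpr-6*) from their median profile, *cpr-9* at 1.30, the vitellogenins at 1.77 to 3.07, *ges-1* at 6.64 and *vha-6* at 8.27.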

How the data were processed

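Gonads of adult worms were dissected and their polyadenylated RNA sequenced with a stranded kit, as reads of 50 bases, in 2 H3.3K27M and 2 wild-type libraries. The submitters' processing notes name TopHat2 2.0.13, HTSeq 0.6.1, edgeR 3.10.5 and the build WBcel235. The strand setting of the counting is not given in the sources used here. Every value rests on the raw count of each gene that the authors deposited. The deposited table also holds a normalized signal per gene, which was not used. The authors' log2 fold changes, average log2 CPM and p-values in the deposited table were not used either. The number of per-sample columns left unmatched was 0.

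The quasi-likelihood test of edgeR 4.0.16 (R 4.3.3, TMM scaling, no covariate beside strain) was run on 15261 of 15286 genes, those having a count of 1 or more in any library. A call needed a fold over 2 and an adjusted p (Benjamini-Hochberg) under 0.05. SEs are the absolute log2 fold change over the square root of F. The procedure was tested on simulated data. Positions and exon lengths came from Ensembl release 115 of WBcel235 (15159 genes), and intervals from scipy 1.17.1. Profiles were compared as log2 CPM with a prior count of 2.

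The 10 genes and all lists were chosen with earlier results of these data known. Of 296 listed genes, 224 matched by name and 8 by gene ID. Named were all 10 proteases, in each other list up to 3 called genes per direction and the 3 of highest mean CPM, a set of gut markers and cysteine proteases, *his-72* and *kgb-1*, and the 5 genes of nearest profile. For the marker lists of tissues other than the intestine sums, counts and called genes are given. Named outside this rule, with their values seen, are *gld-1*, *cpz-2*, *tag-196*, R12H7.4, *ilys-5*, *lys-4*, *erm-1*, *mtl-2*, *ifc-2*, *eps-8*, *pgp-1*, *nhx-2*, *lbp-6*, *myo-1*, *tnt-4* and *phat-1*. The level of *kgb-1*, which the study names, was 9.55 ± 0.429 CPM in H3.3K27M and 1.47 ± 0.0514 CPM in wild type (SD, n = 2 each, log2 fold change 2.70 ± 0.35, adjusted p = 0.0115 by edgeR).

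With 2 libraries against 2, an exact permutation test of a single value cannot go below a two-sided p of 0.333, so none is given. The p-values set the difference between the strains against the spread between these libraries, which is estimated in part from other genes. Depth per library was 28298609 to 32957429 counts. Alternatives were RLE normalization, DESeq2 1.42.0, filterByExpr, the legacy quasi-likelihood method, a replicate block and leaving out each library.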

Additional observations from a re-analysis of the deposited data

How the results depend on the processing

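The 10 proteases' log2 fold changes were recomputed 88 times, and 0 changed sign. Leaving out a library could not reverse a sign, since both mutant libraries were below both wild-type libraries in each gene. Counted as moved were 13, each by more than the SE of its gene, and 10 of them without wild-type replicate 2. The shift of *cpr-5* to -7.57 without mutant replicate 1 also exceeded its SE of 1.32 but was not counted. The values with all 4 libraries ran from -10.41 to -1.93. Among all genes tested, 899 were called (676 higher, 223 lower), 1750 with DESeq2 (1228 and 522) and 463 with the replicate block (372 and 91), and 0 to 118 with a library left out. For the other aspartyl and cysteine proteases and inhibitors 1 gene was called, 5 with DESeq2, 2 with filterByExpr, 3 with the legacy method and 0 to 0 with a library left out. For the lysosome and gut digestion genes 7 were called, 12 with DESeq2 and 0 to 2 with a library left out. For the intestine markers 7 were called, and 0 to 5 with a library left out, where 0 was found without either mutant library or wild-type replicate 2. The cause of these differences was not tested. With a library left out, 1 strain has a single library that is assumed to vary like the other strain.

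The libraries of the 2 strains share replicate numbers only as numbers. Deviations of same-numbered libraries had a correlation of -0.0857 over 9237 genes. With the replicate block, the calls were 463 among all genes, 1 among the other proteases and inhibitors, 9 among the lysosome and gut digestion genes and 6 among the intestine markers. With the block the adjusted p was 0.0512 for *cpr-9*, 0.0506 for *vit-2*, 0.0594 for *pho-10*, 0.0827 for *unc-104*, 0.0985 for *plc-1* and 0.0496 for *asp-13* (edgeR). Of the 10 proteases 2 were called lower with the block, *asp-3* and *cpr-1*, in place of *cpr-5* and *cpr-6*. A change of scaling multiplies the ratio of wild-type replicate 2 over replicate 1 by the same factor in every gene. For *asp-1* this ratio was 11.35 with TMM, 11.14 with RLE and 12.07 without a scaling factor. RLE shifted the median of all genes by 0.03 on the log2 scale. Depth limits *asp-1*, *cpr-3* and *cpr-4*, which had 3 or fewer counts in the mutant libraries together.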
